A study of Mus musculus with 6 samples.

Results

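GATA factors, SCL and their partners were followed in mouse pre-pro-B cells lacking Ebf1, 24 h after the cells had been given Ebf1 back or a control vector. The members were 8 genes, Gata1, Gata2, Gata3, Zfpm1, Tal1 (which encodes SCL), Lyl1, Lmo2 and Nfe2, and every probe whose gene name on the array equalled one of them was taken. This gave 9 of the 41174 probes, of which 8 probes of 7 genes were bright enough to be tested, out of 20454 tested probes that stand for 13836 genes. The Gata1 probe was not tested. All 6 samples were Ebf1 -/- cells that the labels call pre-pro-B cells (Fr.A), grown over a feeder layer (the OP9 stromal line) in medium with Flt3 ligand, stem cell factor and interleukin 7, each at 10 ng/ml. The 3 control samples received the retrovirus pMYs-IRES-EGFP, which encodes EGFP alone. The 3 Ebf1 samples received pMYs-Ebf1beta-IRES-EGFP, which also encodes Ebf1. All were sorted for EGFP 24 h after infection, so the comparison is of sorted infected cells with and without Ebf1 supplied by a vector. The strain and age of the source mice, and whether the replicates came from separate cultures, are not given in the sources used here, so p-values measure only the spread between these samples, which may be technical.

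GATA factors are zinc finger transcription factors that bind the DNA letters GATA and set blood lineages: GATA1 acts in erythroid cells, megakaryocytes and mast cells, GATA2 in stem and progenitor cells, and GATA3 in T cells and innate lymphoid cells. FOG-1, the product of Zfpm1, binds GATA proteins and modifies what they do. SCL and its relative LYL1 are basic helix-loop-helix proteins that pair with E proteins such as E2A on E-box sites, and LMO2 with LDB1 bridges such pairs to GATA factors in one complex. NF-E2 p45, the product of Nfe2, pairs with small Maf proteins and is known for platelet formation and globin gene expression. Ebf1 is the transcription factor on which commitment to the B cell lineage depends, and its binding site is the palindrome TCCCNNGGGA with the core CCCNNGGG.

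The promoters are shown because the letters bound by Ebf1 and by the GATA factors can be looked for in them. RefSeq windows of 300 bases, from 250 before to 50 after an annotated start (GRCm38.p6), were found for 6 of the 8 members, which had 8 windows; Lmo2 and Nfe2 had none in the table used. Gata1 is shown because it alone of the 6 held the full palindrome, Gata2 because both its windows held the core, and Gata3 and Zfpm1 because their signals changed most and their windows held neither. Sequences run 5′ to 3′ in the direction of the gene, and capitals mark the core CCCNNGGG, on which matches can overlap. The Gata1 window is chrX:7967861-7968160 on the minus strand, the Gata2 windows are chr6:88193641-88193940 and chr6:88198414-88198713 on the plus strand, the Gata3 window is chr2:9878551-9878850 on the minus strand, and the Zfpm1 window is chr8:122281891-122282190 on the plus strand.
Gata1: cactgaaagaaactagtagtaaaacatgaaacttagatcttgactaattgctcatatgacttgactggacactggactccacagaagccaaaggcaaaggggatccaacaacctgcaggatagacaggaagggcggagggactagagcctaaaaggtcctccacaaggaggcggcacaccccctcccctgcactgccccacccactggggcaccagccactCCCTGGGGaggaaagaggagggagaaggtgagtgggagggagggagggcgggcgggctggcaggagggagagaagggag
Gata2 window 1: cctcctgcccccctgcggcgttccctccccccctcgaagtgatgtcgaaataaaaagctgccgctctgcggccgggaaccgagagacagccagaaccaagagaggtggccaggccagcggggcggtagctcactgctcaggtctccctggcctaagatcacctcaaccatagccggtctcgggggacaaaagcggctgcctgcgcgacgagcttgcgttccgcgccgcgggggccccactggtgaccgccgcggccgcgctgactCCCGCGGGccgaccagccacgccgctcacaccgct
Gata2 window 2: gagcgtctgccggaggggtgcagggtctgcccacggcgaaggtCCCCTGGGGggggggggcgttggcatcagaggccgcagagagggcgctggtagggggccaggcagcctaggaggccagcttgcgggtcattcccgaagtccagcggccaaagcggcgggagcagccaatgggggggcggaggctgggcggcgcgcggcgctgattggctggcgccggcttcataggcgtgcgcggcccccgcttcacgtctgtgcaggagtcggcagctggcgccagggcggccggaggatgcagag
Gata3: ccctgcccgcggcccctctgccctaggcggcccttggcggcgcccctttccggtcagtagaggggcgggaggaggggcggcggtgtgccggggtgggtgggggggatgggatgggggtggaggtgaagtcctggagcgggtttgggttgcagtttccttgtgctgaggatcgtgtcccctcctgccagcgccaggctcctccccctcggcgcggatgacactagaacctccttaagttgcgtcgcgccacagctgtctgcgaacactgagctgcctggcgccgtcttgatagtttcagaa
Zfpm1: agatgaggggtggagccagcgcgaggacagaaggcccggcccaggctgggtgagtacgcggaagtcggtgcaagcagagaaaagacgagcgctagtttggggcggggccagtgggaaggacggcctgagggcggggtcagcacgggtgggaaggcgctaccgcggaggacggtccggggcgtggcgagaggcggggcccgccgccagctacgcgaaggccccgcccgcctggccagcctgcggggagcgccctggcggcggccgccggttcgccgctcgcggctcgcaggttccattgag

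Both strands were searched for each motif. The core CCCNNGGG stood in 4 of the members' 8 windows (of Gata1, Gata2 and Tal1), and in 13.7% of all 32851 windows of the table. TCCCNNGGGA, which contains that core, stood only in the Gata1 window among the members' windows, against 0.904% of all windows. The GATA site GATAA was present in 1 of the 2 Tal1 windows and in none of the others, against 25.4% of all windows, and that Tal1 match also had the longer form AGATAA, which 11.2% of all windows held. An E-box, CANNTG, was present in 5 of the 8 windows, 1 for each gene but Zfpm1, against 72.3% of all windows. The NF-E2 site TGAGTCA was in none of the members' windows, against 5.2% of all. The Gata2 windows had GC contents of 69.3% and 73.7%, and the Gata3 and Zfpm1 windows 67.3% and 73.7%, against a median of 52.7% over all windows. The Gata1 window had 57.3%, the Tal1 windows 50.7% and 64.3%, and the Lyl1 window 60%. The fixed letters of the core are all C or G, and those of GATAA are mostly A or T. The part of GC content in the motif shares was not tested.

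Before the members are described, the arrays themselves need a short account. The 75th percentile of the processed signal ranged from 239.9 to 365.7 in the control group and from 316.4 to 364.0 in the Ebf1 group, and 46.3% to 50.2% and 50.3% to 59.8% of probes were well above background. The number of arrays, 3 in each group, limits the precision. Arrays lay on 3 slides: slide 2 held control replicates 1 and 3, slide 3 held Ebf1 replicates 2 and 3, and slide 1 held control replicate 2 and Ebf1 replicate 1, the only pair within a slide. All 10 of the pre-pro-B cell markers listed, such as Ptprc, Il7r and Flt3, were well above background on all 6 arrays. The brighter of the 2 Ebf1 probes was well above background on all 6 arrays, those of the Ebf1 -/- controls included, and did not rise with the vector, with 0.44 ± 0.39 (SD, n = 3) in the controls and 0.29 ± 0.09 (SD, n = 3) with Ebf1 (limma adjusted p = 0.646), and the other lay near background on all 6. Whether these probes lie inside the deleted part of the gene or inside the vector's insert is not given in the sources used here, so they check neither the deletion nor the label of the Ebf1 arrays.

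Of the 7 tested members, 4 rose with Ebf1 (Gata2, Zfpm1, Lmo2 and Nfe2) and 3 fell (Gata3, Tal1 and Lyl1), at an adjusted p under 0.05 in limma with Benjamini-Hochberg adjustment over all tested probes. Over all tested genes 12.6% were called higher and 11.0% lower. None of the 7 had overlapping groups, which was so for 45.4% of all tested genes. Gata2 passed the filter only through the group in which it was high, so its place in these counts follows in part from the filter. Values below are log2 of the processed signal relative to each array's 75th percentile, where 0 is a probe at that percentile, and are compared only within a probe. In bulk samples such as these, fewer cells that carry an RNA and less of it per cell cannot be told apart.

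**Figure D1:**
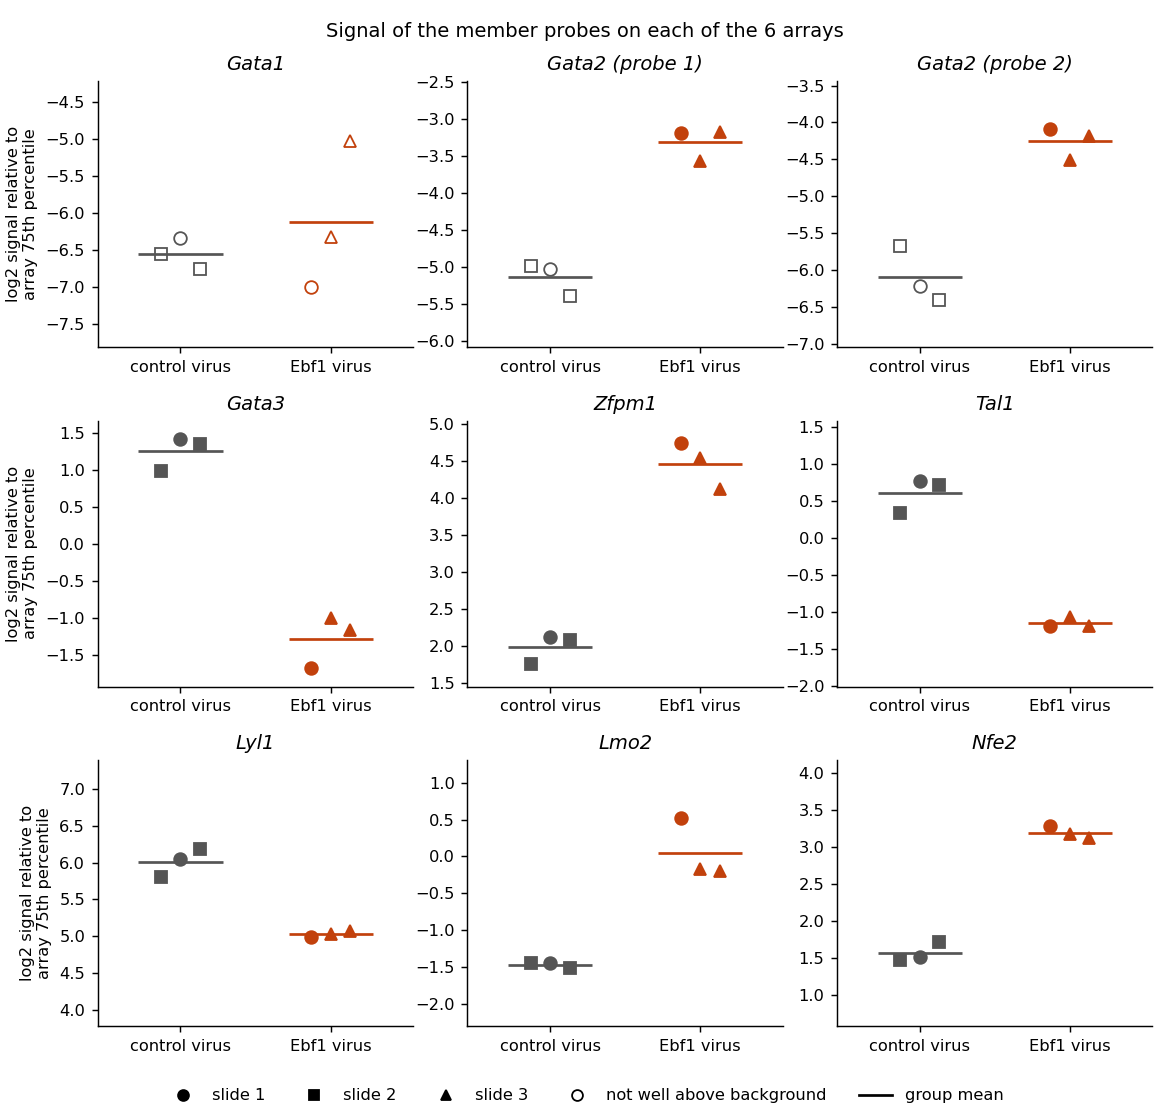
Signal of each of the 9 member probes on the 6 arrays (y axis, log2 relative to the array's 75th percentile), with control virus in grey and Ebf1 virus in orange. Symbols give the slide, open symbols arrays on which the probe was not well above background, and lines the group means (n = 3). In every panel but that of Gata1 the groups are apart.

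Among the GATA factors, Gata3 fell and Gata2 rose from background, while Gata1 stayed near background. The Gata3 probe (NM_008091, mm9 chr2:9778983-9779042, minus strand) gave 0.98, 1.41 and 1.35 in control replicates 1, 2 and 3 and -1.68, -1.0 and -1.17 in Ebf1 replicates 1, 2 and 3. Every Ebf1 array was thus below every control array, with 1.99 between the nearest arrays of the groups. The means were 1.25 ± 0.23 and -1.28 ± 0.35 (SD, n = 3 each), a change of -2.53 ± 0.22 (SE, 95% interval -3.04 to -2.03, limma adjusted p = 0.000167), or 5.78-fold lower. Only 0.328% of the tested probes fell further. Gata3 remained well above background on all 3 Ebf1 arrays, at linear signals of 114 to 173 against 638 to 724 in the controls.

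Gata2 was measured by a pair of probes to the same transcript (NM_008090, plus strand), and neither was well above background on any control array, while both were on all 3 Ebf1 arrays. The first (mm9 chr6:88156835-88156894) read -4.99, -5.03 and -5.40 in the controls and -3.19, -3.56 and -3.17 with Ebf1. The second (chr6:88156362-88156421) read -5.67, -6.21 and -6.40 in the controls and -4.08, -4.50 and -4.19 with Ebf1. No Ebf1 array of either probe overlapped a control array. Since the control signals are only bounds, the rise is given as at least 2.63-fold for the first probe and at least 1.36-fold for the second. The fitted changes of the 2 probes had limma adjusted p = 0.000355 and 0.00101, and both probes passed the filter only through the Ebf1 arrays. Here and below, an adjusted p given with a bound tests the fitted change, not the bound. In these bounds the mean with Ebf1 is set against a control mean in which each array was raised to its lowest signal well above background. Gata2 stayed dim with Ebf1, at linear signals of 29.3 to 39.9 and 15.3 to 21.5 for the 2 probes. With normexp background correction, which adds an offset to every signal, the log2 changes were 0.38 (limma adjusted p = 0.144) and 0.21 (limma adjusted p = 0.444), so the call was lost.

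Gata1 was spotted 10 times on each array through 1 probe (NM_008089, mm9 chrX:7536849-7536908, minus strand) and was below the mark for well above background on all 6. Its averages were -6.55, -6.34 and -6.76 in the controls and -7.00, -6.32 and -5.03 in Ebf1 replicates 1, 2 and 3, and the groups overlapped. Ebf1 replicate 3 stood highest, with 4 of its 10 spots flagged well above background, against 1 of 10 in control replicate 2, where that spot was also an outlier, and 0 on the other 4 arrays. That array also had the largest share of all probes above background, 59.8%. The part of that share in the Gata1 reading was not tested, and no difference in Gata1 was detectable at this signal.

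Zfpm1, the gene for FOG-1, a cofactor of GATA proteins, had the largest measured rise of the members. Its probe (NM_009569, mm9 chr8:124861053-124861112, plus strand) read 1.75, 2.11 and 2.08 in the controls and 4.74, 4.53 and 4.12 with Ebf1. The lowest Ebf1 array stood 2.00 above the highest control array. From 1.98 ± 0.20 to 4.46 ± 0.32 (SD, n = 3 each) the change was 2.48 ± 0.20 (SE, 95% interval 2.01 to 2.95, limma adjusted p = 0.000126), or 5.59-fold higher. Unlike Gata2, Zfpm1 was well above background on all 6 arrays, and 2.09% of the tested probes rose further. The promoter windows of Gata3 and Zfpm1, printed above, hold no core bound by Ebf1, which says only that these letters are not in those 300 bases.

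The basic helix-loop-helix genes Tal1 and Lyl1 both fell, Tal1 by more. The Tal1 probe (M59764, mm9 chr4:114744223-114744283, plus strand) read 0.34, 0.78 and 0.72 in the controls and -1.19, -1.07 and -1.18 with Ebf1. All Ebf1 arrays lay below all controls, and they differed among themselves by less than the controls did. The change from 0.61 ± 0.24 to -1.15 ± 0.07 (SD, n = 3 each) was -1.76 ± 0.16 (SE, 95% interval -2.14 to -1.38, limma adjusted p = 0.000259), or 3.38-fold lower.

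Lyl1 was read by a bright probe (NM_008535, mm9 chr8:87228531-87228590, plus strand) at 5.81, 6.05 and 6.18 in the controls and 4.99, 5.04 and 5.07 with Ebf1. The groups did not overlap, and the Ebf1 arrays were closer together than the controls. The change from 6.01 ± 0.19 to 5.03 ± 0.04 (SD, n = 3 each) was -0.98 ± 0.15 (SE, 95% interval -1.33 to -0.63, limma adjusted p = 0.00319), or 1.97-fold lower. It was the smallest change among the tested members. With slide as a fixed block it was -1.05 (limma adjusted p = 0.0697), and tested against a fold of 1.5 with limma's treat its adjusted p was 0.181, so both ended the call.

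Lmo2, the bridge of the SCL complex, moved the opposite way to Tal1 and Lyl1. Its probe (NM_008505, mm9 chr2:103816341-103821054, plus strand) is 60 bases long but spans 4714 bases of genome, so it reads RNA joined across an intron. It is shown for that reason, with no part in capitals because no motif was searched in it.
Lmo2 probe: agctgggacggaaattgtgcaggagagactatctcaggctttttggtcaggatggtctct

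The Lmo2 readings were -1.44, -1.44 and -1.51 in the controls and 0.52, -0.16 and -0.20 with Ebf1. The control arrays lay close together, while Ebf1 replicate 1 stood above the other Ebf1 arrays, and the groups did not overlap. From -1.47 ± 0.04 to 0.05 ± 0.40 (SD, n = 3 each) the change was 1.52 ± 0.21 (SE, 95% interval 1.02 to 2.01, limma adjusted p = 0.0021), or 2.86-fold higher. Without Ebf1 replicate 1 it was 1.28 (limma adjusted p = 0.0012).

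Nfe2 rose with little spread in either group. Its probe (NM_008685, mm9 chr15:103078838-103078897, minus strand) read 1.48, 1.52 and 1.71 in the controls and 3.28, 3.18 and 3.13 with Ebf1. The groups were 1.41 apart at their nearest arrays. The means were 1.57 ± 0.13 and 3.20 ± 0.08 (SD, n = 3 each), a change of 1.63 ± 0.14 (SE, 95% interval 1.30 to 1.95, limma adjusted p = 0.000173), or 3.09-fold higher.

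**Figure D2:**
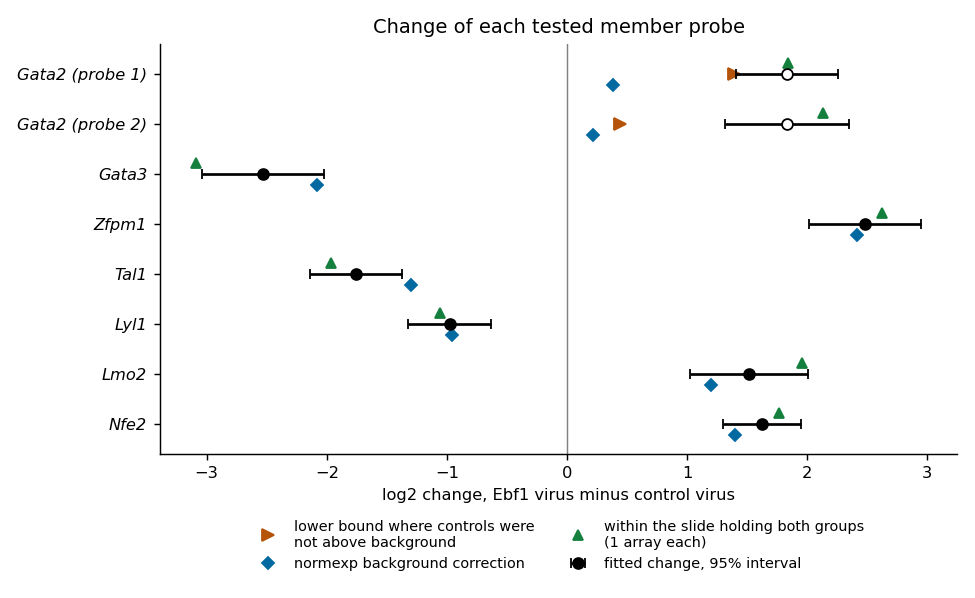
Log2 change of the 8 tested member probes, Ebf1 virus minus control virus (x axis), with 95% intervals. Diamonds give the change after normexp correction, triangles pointing up the value within the slide that held both groups (1 array of each), and triangles pointing right the lower bound for the 2 Gata2 probes (open circles), whose fitted change is not a size. Each probe's symbols all lie on one side of 0, and the 2 Gata2 probes shrink to 0.38 and 0.21 with normexp.

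Slide could be set apart from group only through control replicate 2 and Ebf1 replicate 1, which shared slide 1. Within that slide the log2 changes kept their direction in all 7 tested genes: -3.09 for Gata3, 2.63 for Zfpm1, -1.97 for Tal1, -1.05 for Lyl1, 1.96 for Lmo2 and 1.76 for Nfe2, with 1.84 and 2.13 for the Gata2 probes, which are not sizes. Each rests on 1 array of a group and has no replicate check. Slide as a fixed block gave the same changes for the members, since that fit takes its change from this pair alone. On 7 of the 8 tested member probes, Ebf1 replicate 1 was also the Ebf1 array farthest from the controls in the direction of the change, which was so for 47.6% of the 4434 called probes with a value on every array (of all tested probes, 21.7% were called). Without that array all 7 members kept their calls.

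The partners of the complex were taken as a list of 18 genes for proteins that pair with SCL or are found with it, and all 18 were tested. Of these 2 were called higher and 2 lower, 14 were not called, and the median log2 change was -0.09, against -0.06 over all tested genes. Of all tested genes 12.6% were called higher and 11.0% lower, and the counts of this list and those below stand beside these shares. Gfi1b, a zinc finger repressor of erythroid and megakaryocyte cells, fell by 1.70 ± 0.14 on the log2 scale (SE, limma adjusted p = 0.000147). Runx1, the core-binding factor needed for blood stem cells to form, fell by 1.65 ± 0.26 (SE, limma adjusted p = 0.00341), through both its probes. Cbfa2t3, which encodes the corepressor ETO2, rose by 0.70 ± 0.17 (SE, limma adjusted p = 0.025) through 1 of 2 tested probes. Rcor1, the CoREST corepressor that works with the demethylase LSD1, rose by 0.49 ± 0.14 (SE, limma adjusted p = 0.0485) through 2 of 3. The rises of Cbfa2t3 and Rcor1 were not called with median scaling or with slide as a fixed block, that of Rcor1 was lost without any 1 of the 6 arrays (limma adjusted p 0.0512 to 0.158), and that of Cbfa2t3 without control replicate 2 or 3 or Ebf1 replicate 1 or 3 (0.0569 to 0.095). Ldb1, the direct partner of LMO2, was not called at -0.37 ± 0.22 (SE, limma adjusted p = 0.278). The E protein genes that encode partners of SCL were not called either, with 0.68 ± 0.23 for Tcf3 (SE, limma adjusted p = 0.0751, although 1 of its 3 tested probes was called) and 0.29 ± 0.15 for Tcf12 (SE, limma adjusted p = 0.207).

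Relatives of the members gave 4 higher and 2 lower among 11 tested of 18 listed, with a median of -0.03. The other 7, Gata4, Gata5, Zfpm2, Tal2, Lmo3, Nhlh1 and Nhlh2, were not well above background on any array. Lmo1, a LIM-only gene like Lmo2, rose by 1.87 ± 0.22 (SE, limma adjusted p = 0.000842), and by 0.79 with normexp (0.00319). Lmo4 fell by 1.21 ± 0.19 (SE, limma adjusted p = 0.00412) through 2 of 3 probes. Trps1, a GATA-type zinc finger repressor, fell by 1.19 ± 0.22 (SE, limma adjusted p = 0.00855), also through 2 of 3 probes. Both falls lost their call with limma's treat (adjusted p = 0.0894 for Lmo4 and 0.167 for Trps1). The call of Trps1 was also lost with no filter on dim probes (limma adjusted p = 0.0571). In the family of NF-E2 and its partners, Bach2, a repressor that also pairs with small Mafs, rose by 0.75 ± 0.16 (SE, limma adjusted p = 0.0134). Mafk, a small Maf partner of NF-E2, rose by 0.78 ± 0.20 (SE, limma adjusted p = 0.0294), and Nfe2l2 by 0.48 ± 0.14 (SE, limma adjusted p = 0.0499) through 1 of 3 probes. The call of Nfe2l2 was lost without any 1 of the 6 arrays (limma adjusted p 0.0611 to 0.155), that of Mafk without control replicate 2 or 3 or Ebf1 replicate 1 or 2 (0.0705 to 0.0993) and that of Bach2 without control replicate 2 (0.0548). With slide as a fixed block 1 gene of this list was called higher and 2 lower, and with median scaling 1 higher and 3 lower.

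**Figure D3:**
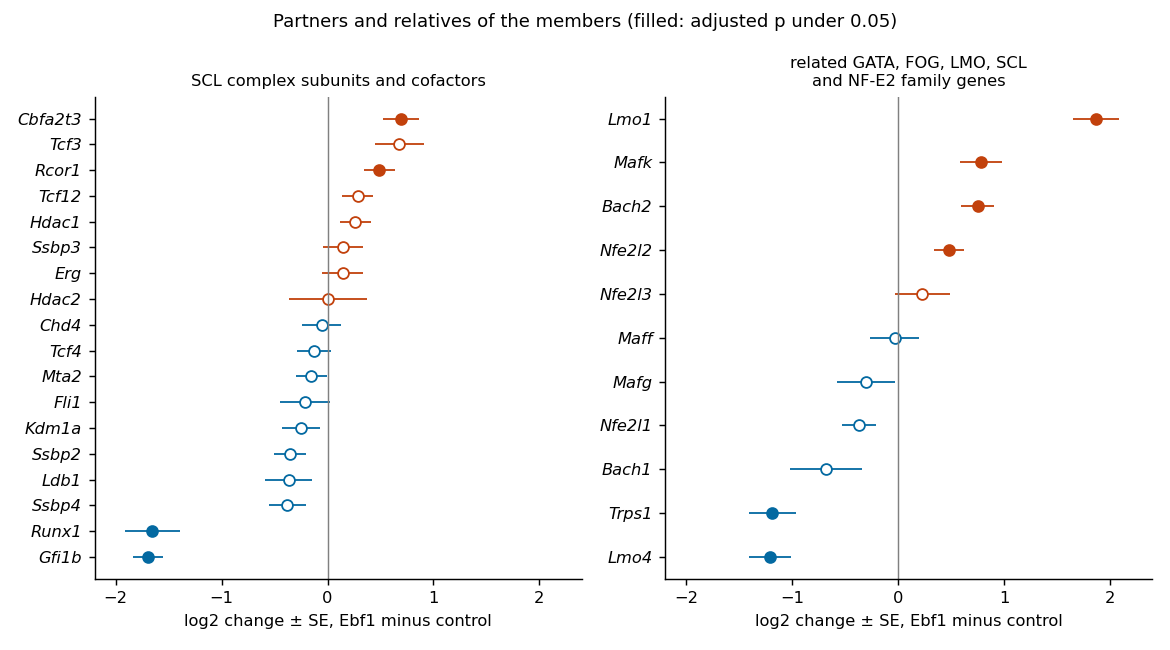
Log2 change with its SE (x axis, Ebf1 virus minus control virus, 3 arrays each) of the tested SCL complex partners (left, 18 genes) and of the tested relatives of the members (right, 11 genes). Filled points had an adjusted p under 0.05 in limma: Gfi1b, Runx1, Lmo4 and Trps1 lie on the lower side, and Lmo1 is farthest to the higher side.

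GATA1 and its partners are best known in red cells and megakaryocytes, and markers of those cells were mostly dim. Of 20 erythroid markers 11 were tested, with 4 higher and 1 lower, and Epb4.2, Rhag and Icam4 were among those not well above background on any array. All 4 called higher were above background on every Ebf1 array but not on every control array, so they passed the filter only through the group in which they were high, and their count supports nothing. Alas2, of haem synthesis, was at least 2.50-fold higher with Ebf1 (limma adjusted p = 0.000337), Klf1, an erythroid transcription factor, at least 1.88-fold (0.00333) and Slc4a1, the band 3 anion exchanger, at least 1.38-fold (0.0208), none of them well above background on any control array. With normexp the log2 change of Alas2 was 0.56 (0.0361), and those of Klf1 (0.34, 0.226) and Slc4a1 (0.25, 0.426) were not called. Klf1 also lost its call with slide as a fixed block (0.135), and Slc4a1 with that block (0.106), with quantile normalisation (0.0581) and without control replicate 1 or 2 or Ebf1 replicate 2 or 3 (0.0628 to 0.0698). Epb4.9, a red cell cytoskeleton gene above background on 1 control array, read -5.30 ± 1.37 in the controls and -3.13 ± 0.31 with Ebf1 (SD, n = 3 each, limma adjusted p = 0.0393). Its difference is no settled size, from 0.41 with normexp to 3.69 with slide as a fixed block, and its call was lost without any 1 array but control replicate 3 (0.0699 to 0.109). Hbb-b1, a beta globin with near-identical copies that its probes may share, fell by 1.84 ± 0.23 (SE, limma adjusted p = 0.0011) through 3 of 4 probes. The median log2 change of the 11 was 0.36, or 0.28 with genes dim in one group at their bound, and normexp left 1 higher and 1 lower. The summed signal of the list, in multiples of the array's 75th percentile, ranged from 45.9 to 51.1 in the controls and from 42.2 to 44.7 with Ebf1 (23.2 to 27.0 and 18.7 to 19.7 without Urod, which adds most). Such sums add unlike probes and describe the arrays alone.

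Of 15 megakaryocyte markers on the array 6 were tested, with 2 higher and 1 lower, a median of 0.18, and 5 (Gp1ba, Pf4, Ppbp, Selp and Treml1) not well above background on any array. Gp9, a subunit of the platelet receptor for von Willebrand factor, rose by 1.48 ± 0.16 (SE, limma adjusted p = 0.000502), and Vwf, which encodes that factor and passed the filter only through the Ebf1 arrays, was at least 1.85-fold higher (limma adjusted p = 0.00348). Itga2b, the platelet integrin CD41, fell by 1.21 ± 0.36 (SE, limma adjusted p = 0.0479), a call lost with normexp, as was that of Vwf, and lost without any 1 array but Ebf1 replicate 3 (0.0679 to 0.143). The summed signal of the 6 was 7.67 to 9.28 in the controls and 14.2 to 16.8 with Ebf1, and without Gp9, which adds most, it was 3.84 to 5.02 and 4.46 to 5.21, which overlap. Mast cell and basophil markers gave 3 tested of 14, while 10, among them Fcer1a and Ms4a2 for the IgE receptor, were not well above background on any array. Cpa3, the mast cell carboxypeptidase, fell by 1.90 ± 0.35 (SE, limma adjusted p = 0.00756), and by 0.60 with normexp (0.0479), a call lost with slide as a fixed block (0.0885). Hdc, which makes histamine, was at least 1.24-fold higher (limma adjusted p = 0.0049). It too passed the filter only through the Ebf1 arrays, and its call was lost with normexp (0.787), quantile normalisation (0.225), median scaling (0.0939), slide as a fixed block (0.16) and treat (0.159).

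Genes of T cells and innate lymphoid cells, where GATA3 acts, went both ways. Of 18 on the array 14 were tested, with 3 higher and 4 lower and a median of -0.15, and Il4 and Il5, cytokines whose genes GATA3 is known to switch on, were not well above background on any array. Txk, a Tec family kinase, fell by 2.07 ± 0.23 (SE, limma adjusted p = 0.000639), and Trat1, a T cell receptor adaptor, fell by 1.91 ± 0.18 (SE, limma adjusted p = 0.000261), each through both its probes. The receptor chain genes Cd3d and Cd3g fell by 1.76 ± 0.37 and 1.53 ± 0.27 (SE, limma adjusted p = 0.0144 and 0.00591). With normexp their log2 changes were smaller, at -0.86 and -0.60 (limma adjusted p = 0.0105 and 0.0285). Sox13, a transcription factor of gamma delta T cells, was at least 17.7-fold higher (limma adjusted p = 3.97e-06), and was well above background on no control array. It passed the filter only through the Ebf1 arrays, so its place among the 3 higher follows in part from the filter. Zbtb7b, which encodes the CD4 lineage factor ThPOK, rose by 1.42 ± 0.19 (SE, limma adjusted p = 0.00159), and Tcf7, which encodes TCF-1, rose by 1.61 ± 0.22 (SE, limma adjusted p = 0.00196). Normexp gave 0.62 for Zbtb7b (limma adjusted p = 0.0169) and 1.26 for Tcf7 (limma adjusted p = 0.000181). The calls of Tcf7, Zbtb7b, Cd3d and Cd3g were lost with slide as a fixed block (0.0544 to 0.0882). The list summed to 53.4 to 64.9 in the controls and 38.0 to 42.5 with Ebf1, and without Txk, which adds most, to 38.5 to 42.8 and 33.3 to 37.4.

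Stem and progenitor genes, among which SCL, LYL1, LMO2 and GATA2 are known to act, gave 3 lower and 0 higher calls in limma among 6 tested of 12, with 4 lower and 1 higher at an unadjusted p under 0.05, and 1 higher and 4 lower called with normexp. Kit, which encodes the receptor for stem cell factor, fell by 1.82 ± 0.18 (SE, limma adjusted p = 0.000318), Mycn by 1.68 ± 0.16 (0.000254) and Cd34 by 1.31 ± 0.23 (0.0067). Their median was -0.85, and the list summed to 171.5 to 256.7 in the controls and 81.8 to 103.4 with Ebf1, mostly from Cd34, and without Cd34 to 40.7 to 40.9 and 17.2 to 23.2. The 10 pre-pro-B cell markers gave 3 higher and 3 lower, with a median of 0.20. Ly6d, which marks B-biased lymphoid progenitors, rose by 2.62 ± 0.19 (SE, limma adjusted p = 7.36e-05), while Il7r fell by 1.69 ± 0.15 (0.000196), Spn, which encodes CD43, by 1.60 ± 0.14 (0.000173) and Cd93 by 1.01 ± 0.15 (0.00257).

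Markers of the stromal feeder moved with the group as well. Of 14 listed, 10 were tested, with 3 higher and 0 lower in limma (8 higher and 0 lower at an unadjusted p under 0.05), a median of 0.61, with 6 higher under normexp, 2 with quantile normalisation, 1 with slide as a fixed block and none with median scaling. Fn1, for fibronectin, rose by 1.07 ± 0.30 (SE, limma adjusted p = 0.042) through 1 of 2 tested probes, Col5a1, a collagen chain, by 0.88 ± 0.26 (0.0488) and Fstl1 by 0.65 ± 0.17 (0.0335). These calls were lost without any 1 array for Col5a1, without any but Ebf1 replicate 3 for Fn1 and without any but control replicate 2 for Fstl1 (limma adjusted p 0.0537 to 0.149). Their sum ranged from 16.2 to 22.8 in the controls and from 25.6 to 33.6 with Ebf1 (10.2 to 14.6 and 16.0 to 20.9 without Pdgfrb, which adds most), while Postn, Lum and Dcn were not well above background on any array. Gata2, Zfpm1, Lmo2 and Nfe2 rose on the same arrays. The part of these markers, or of those of red cells, megakaryocytes, mast cells and T cells, in the changes of the 7 members was not tested.

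**Figure D4:**
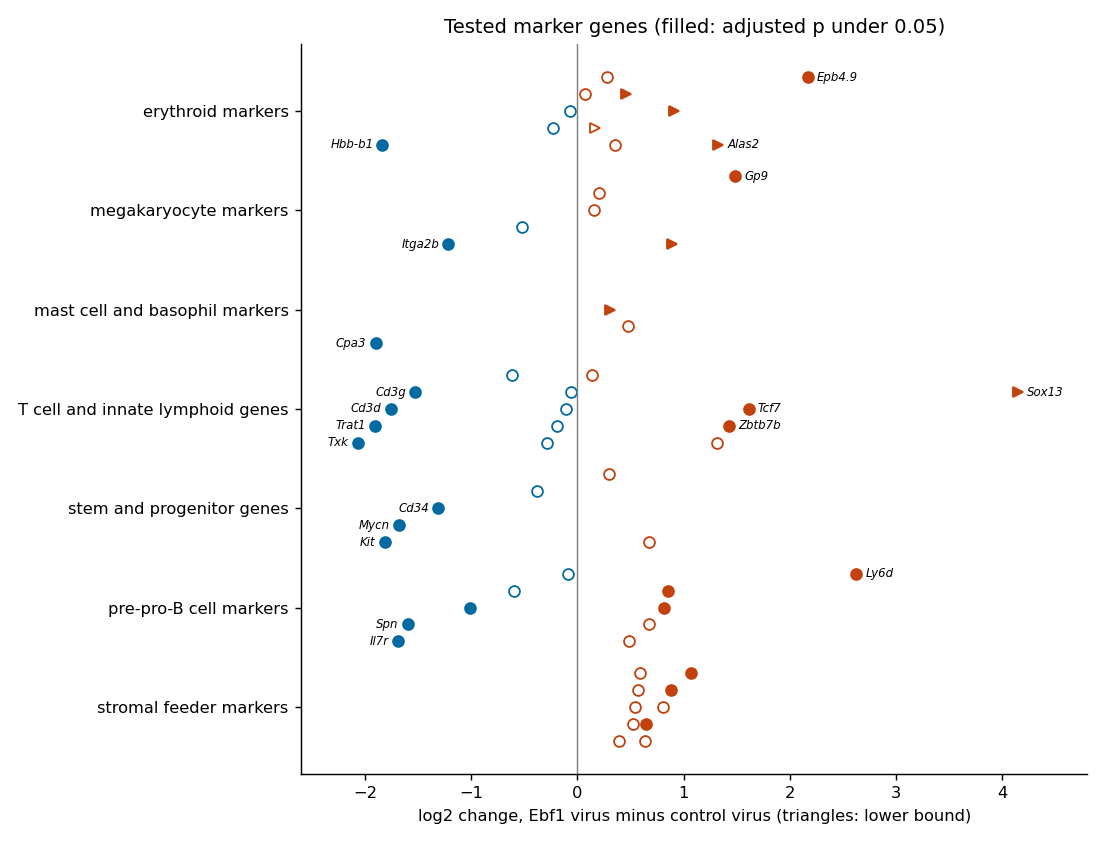
Log2 change (x axis, Ebf1 virus minus control virus) of the tested genes of 7 marker lists, 1 point a gene, with triangles for lower bounds and filled symbols for an adjusted p under 0.05 in limma. Calls lie on both sides of 0 in 5 of the lists, on the lower side alone in the stem and progenitor list (3 genes) and on the higher side alone in the stromal feeder list (3 genes). Epb4.9 is drawn at its fitted value, although 2 of its 3 control arrays were not well above background.

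For each tested member, the 2 genes whose readings followed it most closely were found by Pearson's r over the 6 arrays, among 11296 tested genes with a symbol. These r values mostly reflect the distance between the groups and are given as a description. Closest to Gata3 were Gmppb (r = 0.9997) and the homeobox gene Hlx (r = 0.999), and Hlx fell by 2.48 ± 0.21 on the log2 scale (SE). For Zfpm1 they were Dusp2, a MAP kinase phosphatase, and Trip6 (both r over 0.99), for Tal1 P2rx5, an ATP-gated channel, and Rasgef1b, and for Lyl1 Mrpl58 and Crybg1. Those of Lmo2 were Sh3kbp1 and Zfp784, those of Gata2 Trak1 and Mkrn2, and those of Nfe2 Rem2 and Tnnt2. The fitted change was 8.45 ± 0.34 (SE) for Tnnt2, cardiac troponin T, and 6.26 ± 0.32 (SE) for Rem2. Whether Hlx, Tnnt2 and Rem2 were well above background in both groups is not given here, so their fitted changes may not be sizes. The number of genes with r over 0.99 ranged from 22 for Gata2 to 255 for Nfe2.

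Genes next to the members on the chromosome were read to see whether they moved too. By the gene order of GRCm38.p6, the nearest protein-coding gene with a probe was taken on each side of each member, 16 in all, of which 13 were tested. Of all tested genes 12.6% were called higher and 11.0% lower, so a count among 13 can say little. Only Fbxo3, beside Lmo2, was called, with a rise of 0.63 ± 0.17 (SE, limma adjusted p = 0.0335), which was lost with median scaling and without any 1 array but Ebf1 replicate 2 (0.0618 to 0.117). The other 12 had log2 changes from -0.69, for Celf2 beside Gata3 (limma adjusted p = 0.0651), to 0.34, for Dand5 beside Lyl1 (limma adjusted p = 0.125). The neighbours Rpn1 of Gata2, Banp of Zfpm1, Stil and Pdzk1ip1 of Tal1, and Hnrnpa1 and Copz1 of Nfe2 were not called. Lyl1 overlaps Nfix in that table.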

How the data were processed

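Cy3-labelled RNA of 6 samples was read on Agilent 1-colour arrays, 3 per group. The deposited values are linear spot intensities: per the file headers, Feature Extraction 10.5.1.1 subtracted background and removed spatial trends, and no step between arrays is recorded. Probe positions are mm9, per the file headers; whether a probe lies in coding or untranslated sequence is not given in the sources used here.

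From these, log2 of the processed signal minus the 75th percentile of each array's 43379 non-control features was taken. Outlier spots (65 to 116 per array) were left out, no non-control spot was saturated, and spots of a probe were averaged. A probe was tested when at least a share of 0.5 of its spots carried the well-above-background flag on all 3 arrays of a group. Groups were compared with limma (version 3.58.1, functions lmFit then eBayes; R 4.3.3; tables read by data.table version 1.17.8), as a two-sided test with p-values adjusted by Benjamini-Hochberg across all tested probes and called under 0.05. The tested probe of highest mean stands for its gene. The fit was tested on simulated data. Symbols of 25097 probes were updated by RefSeq accession (GRCm38.p6), and promoters come from RefSeq.

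The series' own deposited matrix of intensities equalled the processed signal at all 45018 features within 0.1%, so it is linear, uncentred and holds no ratio. Its column medians were 13.1, 7.62 and 9.07 for the controls and 12.7, 12.3 and 19.7 for the Ebf1 samples.

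The members and gene lists were chosen with earlier results of these data known. Named were all members, up to 4 called genes per list with the smallest p, and the 2 closest genes per member. Other list genes, and the neighbour rule, were chosen after their values were seen. Alternatives were normexp (offset 50), quantile and median scaling, other filters, blocks for replicate number and slide, eBayes with trend and robust options, treat at a fold of 1.5, the mean of a gene's probes, values of the deposited table, and fits without each array in turn; for named list genes and Fbxo3 they were added after the data were seen. No pairing of the arrays by replicate number was seen.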

Additional observations from a re-analysis of the deposited data

How the results depend on the processing

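The 4 rises and 3 falls among the members kept their direction under every alternative run, and none was reversed. With normexp, and with a filter that keeps probes above background on every array, 3 members rose, as Gata2 was not called or not tested. With slide as a fixed block, and with treat against a fold of 1.5, 2 fell, as Lyl1 was not called. Leaving out any 1 array left 4 rises and 3 falls. With median scaling the tested member probes all had the same SE, 0.339, so a call there depended on the size of the change alone. Other named genes shared that SE, such as Cbfa2t3, Rcor1, Hdc, Alas2, Itga2b and Sox13, so the counts with median scaling need the same care. With a replicate block 4 members rose and 3 fell, while the called probes went from 2350 higher and 2085 lower to 1863 and 1233; among other named genes the block ended the calls of Rcor1, Nfe2l2, Epb4.9, Fstl1 and Fbxo3. No pairing by replicate number was seen: deviations of same-numbered arrays correlated at -0.17, -0.25 and 0.10, and 1 of 3 arrays in each group correlated best with its own number. So few arrays cannot settle whether they were paired. Over all probes, calls differed most with treat (1011 higher, 351 lower), slide as a fixed block (1269 and 898), no filter on dim probes (1341 and 655), median scaling (1256 and 2642) and without control replicate 2 (1623 and 1008) or control replicate 3 (1764 and 1017), and without Ebf1 replicate 2 they were 1921 and 1362. The higher share of calls was 53% at first, 32.2% with median scaling, 67.2% without the filter, 60.2% with the replicate block, 74.2% with treat and 63.4% without control replicate 3, and median scaling moved the median change of all probes from -0.06 to -0.37. The cause of these differences was not tested. Slide and group could be told apart through 1 array of each group alone, and signals near background left Gata1 untested and limit Gata2 to bounds. Each member but Gata2 rests on a single probe.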
